A study of Mus musculus with 217 samples.

Results

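The 8 genes Ch25h, Hmgcs1, Sqle, Insig1, Srebf2, Abca1, Abcg1 and Scarb1 were followed in endothelial cells (ECs) of the mouse brain, lung and heart. They were picked by symbol to cover the synthesis of cholesterol, its uptake and export, and the making of an oxysterol, and they are 8 of the 52550 gene rows in the count files. All 8 passed the filter on low counts in every comparison.

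The mice were adult C57BL/6J RiboTagEC animals (Cdh5CreERT2/+; Rpl22HA/+), in which a Cre driven by the VE-cadherin promoter puts an HA tag on the ribosomal protein RPL22 of ECs once tamoxifen has been given. Every animal, the controls included, had received 4 gavages of 5 mg tamoxifen at 4 to 6 weeks of age, so the allele and the drug are common to all groups. Tissues were taken after 10 mg/kg of intraperitoneal lipopolysaccharide (LPS, a bacterial endotoxin) at 6, 24, 48, 72 or 168 hr, or from controls (0 hr), and mRNA pulled down with the HA-tagged ribosomes was sequenced. Controls received saline according to the methods. The libraries used number 5, 5, 4, 6, 4 and 4 at 0, 6, 24, 48, 72 and 168 hr in brain and in heart, and 4, 4, 2, 6, 4 and 4 in lung. The labels do not say which tissues came from the same mouse or that replicates were separate animals, so p-values measure the spread between these samples.

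A cell gains cholesterol by making it or by taking it up from lipoproteins. When sterols in the endoplasmic reticulum fall, the transcription factor SREBP2 (gene Srebf2) is released from its retention by INSIG proteins and turns on the genes of the synthesis pathway, among them Hmgcs1, Sqle and Insig1 itself. When sterols are plentiful, oxysterols activate LXR receptors, which turn on the exporters Abca1 and Abcg1. CH25H makes 25-hydroxycholesterol, an oxysterol that holds SREBP2 back and that immune and endothelial cells are known to produce when exposed to endotoxin or interferon. SR-BI (gene Scarb1) binds high-density lipoprotein and moves cholesterol esters into the cell, and in ECs it is also known for lipoprotein transport and signaling.

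The genes lie on 6 chromosomes of GRCm38, and GENCODE lists each as protein-coding. Ch25h (chr19:34473778-34475164, minus strand) is a gene of 1 exon and 1387 bases, of which 159 overlap exons on the opposite strand. Hmgcs1 (chr13:119690379-119708260, plus strand) has 11 merged exons, and 557 of its 4594 exon bases overlap an opposite-strand exon. Whether reads were counted by strand is not given in the sources used here, so reads of these 2 genes and of their antisense neighbors cannot be told apart over those bases. The other 6 share no exon bases with another gene: Sqle (chr15:59315077-59331192), Insig1 (chr5:28071363-28078662), Srebf2 (chr15:82147181-82205379) and Abcg1 (chr17:31057675-31117988) on the plus strand, and Abca1 (chr4:53030787-53159895) and Scarb1 (chr5:125277087-125341094) on the minus strand.

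Promoter sequences of 5 of the 8 genes were found in the RefSeq table for GRCm38.p6, and 3 are shown here because they carry the contrast between the gene that moved most (Ch25h), a synthesis enzyme (Hmgcs1) and the regulator of that pathway (Srebf2). Each is the 250 bases before the transcription start, 5′ to 3′ on the gene's own strand, with the matched motifs in capitals.
Ch25h, chr19:34475149-34475398, minus strand: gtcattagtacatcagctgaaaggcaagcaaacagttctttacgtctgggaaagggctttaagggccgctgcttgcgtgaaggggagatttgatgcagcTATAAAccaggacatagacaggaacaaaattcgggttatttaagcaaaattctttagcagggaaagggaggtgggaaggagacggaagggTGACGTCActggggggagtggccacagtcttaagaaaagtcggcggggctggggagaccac
Hmgcs1, chr13:119690101-119690350, plus strand: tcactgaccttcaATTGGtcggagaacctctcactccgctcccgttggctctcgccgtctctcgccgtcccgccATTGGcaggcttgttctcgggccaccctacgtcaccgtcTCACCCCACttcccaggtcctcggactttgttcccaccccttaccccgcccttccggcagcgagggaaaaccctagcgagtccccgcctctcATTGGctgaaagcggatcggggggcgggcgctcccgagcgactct
Srebf2, chr15:82147019-82147268, plus strand: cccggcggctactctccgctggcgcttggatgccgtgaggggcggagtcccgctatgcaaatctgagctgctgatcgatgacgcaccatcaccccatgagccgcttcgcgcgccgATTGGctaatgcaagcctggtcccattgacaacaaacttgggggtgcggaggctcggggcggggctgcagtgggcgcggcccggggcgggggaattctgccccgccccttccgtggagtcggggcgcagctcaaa
In Ch25h the capitals mark a TATA box (TATAAA, first base 151 bases before the start) and a cAMP response element (TGACGTCA, first base 61 bases before the start). In Hmgcs1 they mark a sterol regulatory element (TCACCCCAC, a match to TCACNCCAC, at position -137) and the CCAAT box read on the opposite strand as ATTGG (at -237, -176 and -45, with a further one 11 bases after the start, outside the printed bases). In Srebf2 they mark 1 CCAAT box as ATTGG (at -135). Insig1 held a CCAAT box at -216 and an E-box (CACGTG) at -101, and Abca1 held a TATA box at -29 and an E-box at -147.

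The motifs were searched on both strands from 250 bases before to 50 bases after the start in all 32851 promoters of the table. TCACNCCAC was in 1.24% of them, CCAAT in 37.4%, TGACGTCA in 1.79%, TATAAA in 13.6% and CACGTG in 7.15%. A gamma-activated site (TTCNNNGAA) was in 8.3% of all promoters and in none of the 5. Of the 5 promoters, Hmgcs1 alone held TCACNCCAC and Ch25h alone held TGACGTCA. Only exact matches were counted, so a promoter without a match may hold a variant of the motif. In the Srebf2 bases printed above, tcaccccat differs from TCACNCCAC in its last letter alone. These matches describe letters in a window and are not shown to be bound.

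Counts on genes ran from 7226796 to 32891759 per library in brain, from 284457 to 43417945 in lung and from 8136031 to 33050750 in heart. Lung was the least even tissue: 3.4% to 61.0% of reads fell on genes, against 53.4% to 70.0% in brain and 43.7% to 68.9% in heart. The 10 endothelial markers, Cdh5 and Pecam1 among them, had counts in every group. Their summed level was 1780 to 3642 CPM (counts scaled to a common library total) in brain controls, 12377 to 16875 in lung controls and 9533 to 10596 in heart controls, while in the brain controls 8 neuronal markers summed to 1261 to 5351 CPM, 7 oligodendrocyte markers to 1260 to 6131 and 7 astrocyte markers to 970.0 to 4421. In bulk samples such as these fewer cells of a type and less RNA per cell cannot be told apart.

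Some libraries stood apart from the rest of their group, read from 12 genes of the LPS response (Sele, Icam1, Cxcl10, Lcn2 and others) that were picked after the values of the 8 genes had been seen. In the brain library labelled 6 hr replicate 6 these genes summed to 873 CPM, against 9374 to 13317 in the other 4 and at most 712 in controls. In the heart library labelled 6 hr replicate 5 the sum was 1140 CPM, against 19167 to 35619 in the other 4 and at most 773 in controls. Brain 48 hr replicates 1 and 2 were at 1893 and 875 CPM, against 10045 to 33026 in the other 4, and heart 48 hr replicates 1 and 2 at 3193 and 2385, against 6846 to 23109. In lung, 6 hr replicate 4 had 284457 counts on 3760 genes with 97.0% of them in its 100 most abundant genes, and replicate 2 had 2745503 counts with 84.4% in the top 100. The count files follow 4 naming patterns, here called library series, and the 2 libraries labelled 6 hr replicate 6 (brain) and replicate 5 (heart) are the only kept 6 hr libraries of series 1 in their tissues. Each called value of the 8 genes that involves a 6 or 48 hr group is given below with these 8 libraries left out together. This alternative was chosen after seeing the data and is not given for the other listed genes of the pathway. The brain and heart libraries among the 8 were chosen for low LPS-response genes. Leaving them out thus favors larger LPS responses and adds no separate support. No fixed cutoff was set: lung 48 hr replicate 1 (81.9% in the top 100) was kept. Heart 72 hr replicate 1 and lung 48 hr replicate 4, with LPS-response sums not above every control, were kept too. With the 8 libraries that stand apart left out together, calls per 40 comparisons numbered 6 (brain), 1 (lung) and 10 (heart). How many of all genes passed under that setting is not given here. These counts thus describe the setting and are not a result about the 8 genes.

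At baseline the 3 beds differed in 16 of 24 comparisons of the 8 genes, with 2 synthesis genes highest in brain ECs, Abcg1 and Ch25h highest in lung ECs, and Scarb1 and Abca1 highest in heart ECs. All levels are CPM scaled by edgeR's TMM factors over the 80 libraries, and all folds between groups come from edgeR's quasi-likelihood fit with Benjamini-Hochberg adjustment over all genes (threshold 0.05). That fit includes a term for the library series, so a fold need not equal the ratio of 2 printed levels. Against a background of 37.9% of all 17730 genes higher and 26.4% lower in brain than in lung, 3 of the 8 were higher and 2 lower. Brain against heart gave 2 higher and 3 lower (background 32% and 22.8%), and lung against heart 3 higher and 3 lower (background 29.9% and 31.2%). Shares of this size are near the background, and the median log2 difference of all genes between brain and lung was itself 0.42.

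**Figure D1:**
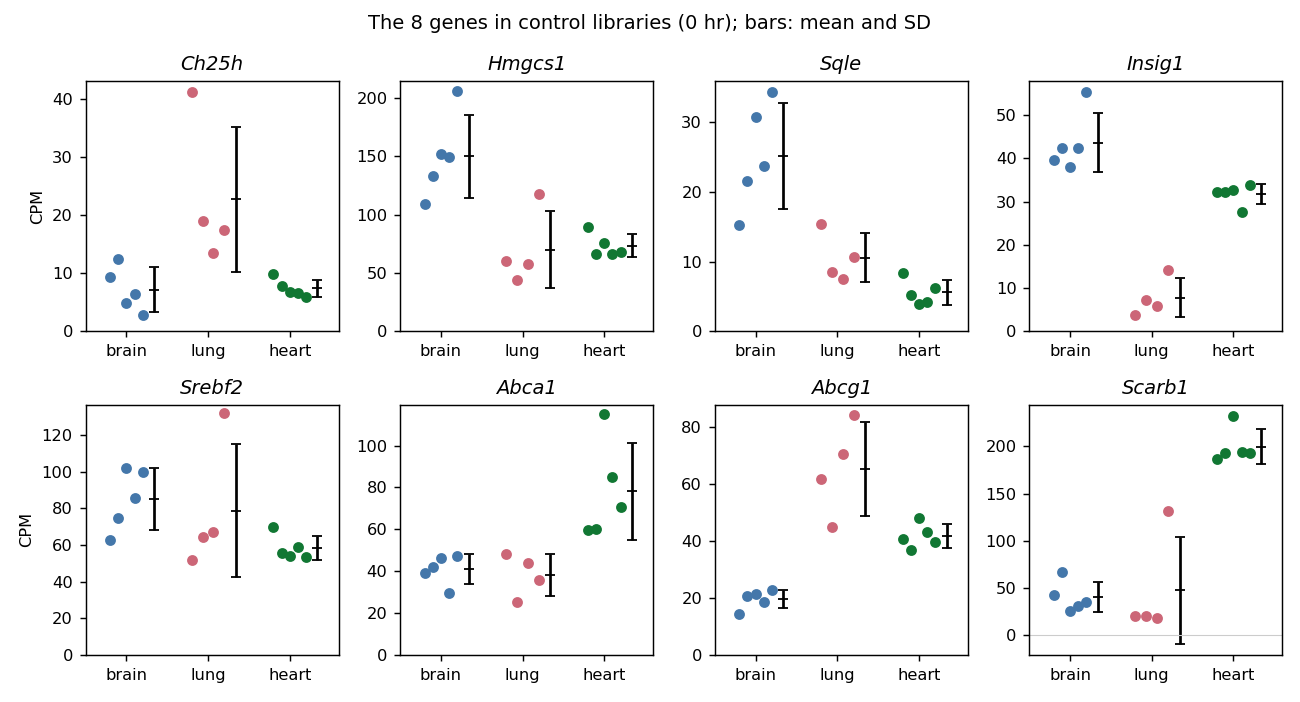
Levels of the 8 genes in the control libraries at 0 hr (CPM, linear axis that includes 0, own axis in each panel), 1 point per library with the mean and SD beside it. Scarb1 lies at 187 to 232 CPM in all 5 heart libraries, and 1 lung library (132 CPM) lies far above the other 3.

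The synthesis enzymes Hmgcs1 and Sqle were highest in brain. Hmgcs1, which joins acetyl-CoA and acetoacetyl-CoA into HMG-CoA early in the pathway, was at 150 ± 35.7 CPM in brain (SD, n = 5), 69.8 ± 32.9 in lung (SD, n = 4) and 73.3 ± 9.95 in heart (SD, n = 5). It was 2.12-fold higher in brain than in lung (log2 1.08, SE 0.27, adjusted p = 0.00269) and 1.98-fold higher than in heart (adjusted p = 0.00311), while lung and heart differed by a log2 of -0.1 (95% interval -0.61 to 0.41). Sqle, the squalene epoxidase that takes squalene towards the sterol ring, was at 25.1 ± 7.6, 10.5 ± 3.49 and 5.57 ± 1.77 CPM. It was 4.43-fold higher in brain than in heart (log2 2.15, SE 0.3, adjusted p = 2.19e-05), 2.37-fold higher in brain than in lung (adjusted p = 0.00353), and 1.87-fold higher in lung than in heart (adjusted p = 0.0209). The part of the neural cells whose markers are given above in these brain levels was not tested.

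The control genes differed in another way. Insig1, the retention factor of SREBP, was low in lung alone: 38.1 to 55.3 CPM in the 5 brain libraries, 27.7 to 33.8 in the 5 heart libraries and 3.77, 7.31, 5.74 and 14.2 in the 4 lung libraries. Lung lay below both others (brain 5.37-fold above lung, adjusted p = 6.2e-06, and lung at 0.246 of heart, adjusted p = 4.14e-05), and brain against heart was not called (log2 0.4, interval -0.1 to 0.9). Srebf2 passed in none of the 3 edgeR comparisons, at 84.9 ± 16.7, 78.7 ± 36.2 and 58.3 ± 6.77 CPM in brain, lung and heart. DESeq2 placed it higher in brain than in heart (adjusted p = 0.0302) and in lung than in heart (adjusted p = 0.0383), as did RLE scaling (adjusted p = 0.0438 and 0.0492).

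The 2 exporters were each highest in another tissue. Abcg1, the exporter of cholesterol to mature high-density lipoprotein, was at 19.5 ± 3.24 CPM in brain, 65.3 ± 16.5 in lung and 41.6 ± 4.17 in heart, and all 3 comparisons passed. Brain was at 0.284 of lung (log2 -1.81, SE 0.21, adjusted p = 2.97e-06) and at 0.451 of heart (adjusted p = 0.000126), and lung was 1.59-fold above heart (adjusted p = 0.0112). Abca1, the exporter to lipid-poor apolipoproteins, was at 40.8 ± 7.16, 38.2 ± 10.1 and 78.1 ± 23.0 CPM, with brain at 0.507 and lung at 0.503 of heart (adjusted p = 0.00278 and 0.00447).

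Scarb1 in heart was at 187, 193, 232, 194 and 193 CPM, above every control library of the other tissues. It was 42.4, 67.4, 26.1, 31.3 and 35.8 CPM in brain and 20.3, 20.0, 18.2 and 132 in lung. Brain was at 0.179 of heart (log2 -2.48, SE 0.43, adjusted p = 0.000159) and lung at 0.184 (adjusted p = 0.000564). Lung replicate 4, at 132 CPM, also had a summed alveolar type 2 marker level of 2293 CPM against 9066 to 10840 in the other 3 and the largest share of its reads on genes among lung controls (56.2%), and the part of these in its Scarb1 level was not tested. Without that library Scarb1 was higher in brain than in lung (log2 0.90, SE 0.25, adjusted p = 0.00453), where the fit with it gave -0.04.

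Ch25h in controls was at 2.79 to 12.5 CPM in brain, 5.97 to 9.81 in heart, and 41.2, 19.0, 13.4 and 17.4 in lung. Lung exceeded heart 2.81-fold (log2 1.49, SE 0.32, adjusted p = 0.00111), brain was at 0.306 of lung (adjusted p = 0.000308), and brain and heart differed by a log2 of -0.22 (interval -0.82 to 0.38). Per kilobase of exon, which allows a comparison between genes, the median Ch25h level in brain (4.65 CPM per kb) was near those of Sqle (4.27), Scarb1 (4.21) and Abca1 (4.05), and Hmgcs1 was highest (32.4). In heart Scarb1 led (22.7), followed by Hmgcs1 (14.8), and in lung Ch25h (13.1) and Hmgcs1 (12.8) stood together at the top.

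After LPS the largest and longest change among the 8 was that of Ch25h, in brain and heart ECs. The other changes that passed were smaller and lay at 6 or 24 hr: Abca1 and Sqle in brain, and Hmgcs1 and Srebf2 (higher) and Scarb1 (lower) in heart. Over 5 times and 8 genes, 6 of 40 comparisons passed in brain, 0 of 40 in lung and 6 of 40 in heart. In lung, 7 of the 40 had an unadjusted edgeR p under 0.05, DESeq2 called 4 and limma-voom called 0. Of all 17058 genes tested in lung, 3960, 1022, 1674, 1225 and 605 had such a p at 6, 24, 48, 72 and 168 hr. The shares of all genes that DESeq2 and limma-voom called are not given here, so these counts are not a result about the 8 genes.

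In brain 2 of 8 genes were higher at 6 hr (background 4.21% of all genes higher and 2.23% lower), 2 at 24 hr (6.52% and 4.66%), 1 at 48 hr (8.11% and 6.12%), 1 at 72 hr (2.98% and 0.546%) and none at 168 hr (0% and 0%, with 1 of the 8 at an unadjusted edgeR p under 0.05 and none called by DESeq2 or limma-voom). In heart 3 were higher and 1 lower at 6 hr, where 22.4% of all genes were higher and 20.3% lower, so that count is close to the background. Ch25h alone was higher at 24 hr (9.07% and 7.11%) and at 48 hr (3.08% and 1.11%), and none of the 8 passed at 72 hr (0.275% and 0%) or 168 hr (0% and 0%), where 1 and 0 had an unadjusted p under 0.05 and DESeq2 and limma-voom called none. Over all genes, 828 of 19234 in brain at 168 hr had an unadjusted edgeR p under 0.05. In heart 943 and 680 of 16024 did at 72 and 168 hr. In lung the background itself was small: 2.56% and 2.27% at 6 hr, 0.363% and 0.0117% at 24 hr, 0.428% and 0.17% at 48 hr, 0.17% and 0.0234% at 72 hr, and 0% and 0.0117% at 168 hr. At 6 hr the 8 members had a median log2 change of 0.33 for brain ECs (0 over all genes), 0.37 for lung ECs (-0.42) and 0.48 for heart ECs (-0.05).

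**Figure D2:**
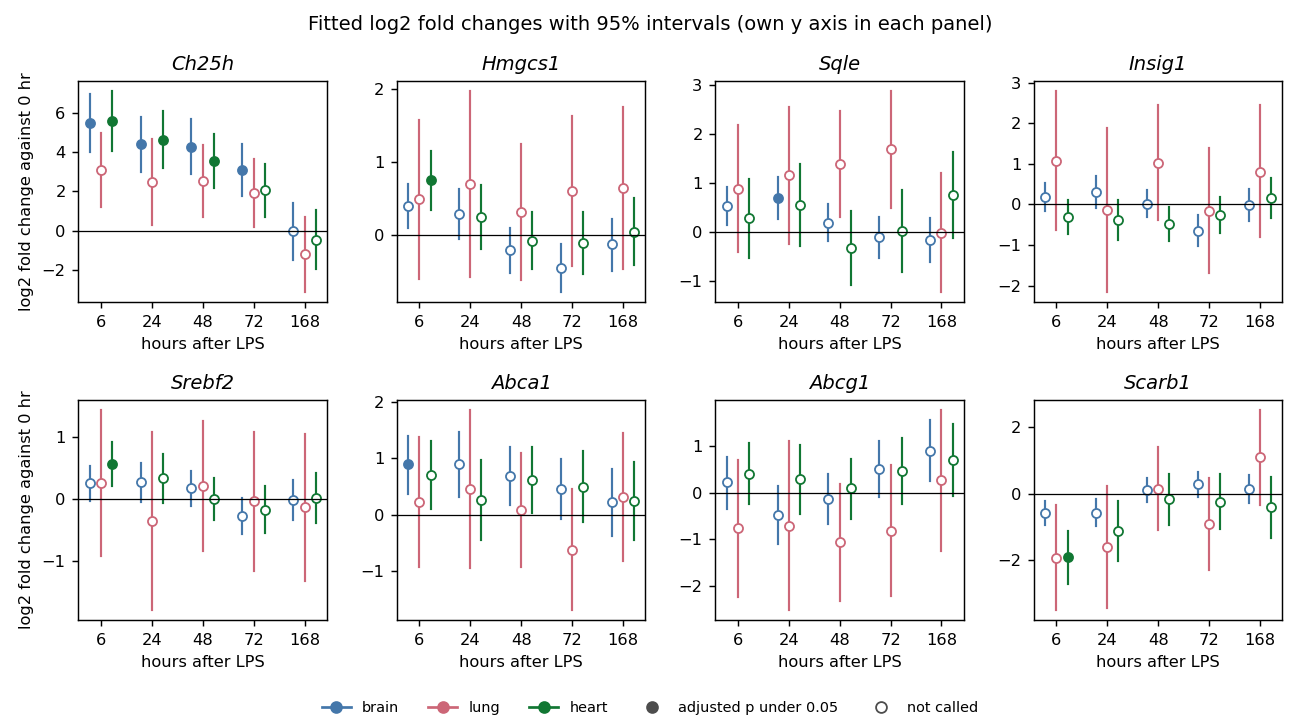
Fitted log2 fold changes against 0 hr (y axis, own scale in each panel) at each time after LPS (x axis, hours) in brain, lung and heart, with 95% intervals; filled points passed an adjusted p of 0.05. Ch25h is above 0 in all 3 tissues from 6 to 72 hr, filled at all 4 of these times in brain and up to 48 hr in heart, and most other intervals cross 0, the lung ones being widest.

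Ch25h in brain was at 257, 288, 290, 214 and 16.3 CPM at 6 hr, against 9.33, 12.5, 4.81, 6.45 and 2.79 CPM in the controls. Every 6 hr library was above every control, and the lowest is the library labelled replicate 6. The fold was 43.8 (log2 5.45, SE 0.75, adjusted p = 0.00012), and without that library the log2 fold change was 5.93 (SE 0.55, adjusted p = 3.79e-08), or 5.68 with the 48 hr libraries that stand apart left out too.

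Later brain groups stayed above the controls up to 72 hr. At 24 hr Ch25h was at 234, 174, 184 and 283 CPM (log2 fold change 4.39, SE 0.71, adjusted p = 0.000522). At 48 hr the 6 libraries split: replicates 1 and 2 were at 32.7 and 16.1 CPM and the other 4 at 477, 140, 302 and 484, and all 6 were above the controls (log2 4.26, adjusted p = 0.000584, or 4.88 with an adjusted p of 3.4e-08 with the libraries that stand apart left out). At 72 hr it was at 40.8, 28.9, 85.6 and 190 CPM (log2 3.08, SE 0.68, adjusted p = 0.00825), and at 168 hr at 9.13, 10.4, 15.9 and 22.6, a range that overlaps the controls (log2 -0.03, interval -1.49 to 1.43). The 72 hr call was lost with limma-voom (adjusted p = 0.0896) and with a replicate block (log2 2.71, adjusted p = 0.0526).

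Ch25h in heart was at 9.81, 7.84, 6.82, 6.62 and 5.97 CPM in controls and at 533, 437, 303, 245 and 5.61 at 6 hr, the last being the library labelled replicate 5, which lies below every control. The fold was 47.4 (log2 5.57, SE 0.78, adjusted p = 2.32e-05), and without that library the log2 was 6.04, or 5.91 with the 48 hr libraries that stand apart left out too. At 24 hr the 4 libraries were at 214, 272, 172 and 292 CPM (log2 4.62, SE 0.74, adjusted p = 0.000948). At 48 hr replicates 1 and 2 were at 36.9 and 39.9 CPM and the other 4 at 205, 92.0, 246 and 105, all above the controls (log2 3.55, adjusted p = 0.00411, or 0.0601 with limma-voom). With the libraries that stand apart left out the 48 hr value was 3.91 (adjusted p = 1.73e-05). At 72 hr the values 13.1, 22.6, 37.9 and 94.8 CPM were all above the controls but did not pass (log2 2.05, adjusted p = 0.373), and they passed without 6 hr replicate 5 (log2 1.99, adjusted p = 0.0146). At 168 hr the range was 3.46 to 13.5 CPM (log2 -0.45, interval -1.93 to 1.04).

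In lung edgeR called Ch25h at no time. At 6 hr it was at 169 and 294 CPM in replicates 1 and 3 and had 0 counts in replicates 2 and 4, where 3 counts would have been 1.09 and 10.5 CPM. The fit gave a log2 of 3.07 (SE 0.96, adjusted p = 0.0558), and DESeq2 called it (3.25, adjusted p = 0.00201). Without replicate 4 the value was 3.62 (adjusted p = 0.023), without replicate 2 it was 3.48 (adjusted p = 0.0131) and without both it was 4.21 (SE 0.67, adjusted p = 0.00131). With libraries under 10% of reads on genes left out it was 4.51 (adjusted p = 0.00212), a fit that keeps 1 lung library at 6 hr and assumes that it varies like the other groups. At 24 hr both libraries were above all controls at 252 and 307 CPM (log2 2.49, SE 1.11, adjusted p = 0.744). At 48 hr it was at 26.8 and 17.8 CPM in replicates 1 and 2 and at 346, 273, 566 and 533 in the other 4 (log2 2.52, adjusted p = 0.295, or 0.0185 under the 10% minimum), and DESeq2 called this time as well (2.56, adjusted p = 0.0331). At 72 hr the values were 53.3, 53.6, 101 and 267 CPM, all above the controls (log2 1.92, interval 0.19 to 3.65, adjusted p = 0.632), and at 168 hr they were 14.5, 26.4, 18.8 and 35.9.

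**Figure D3:**
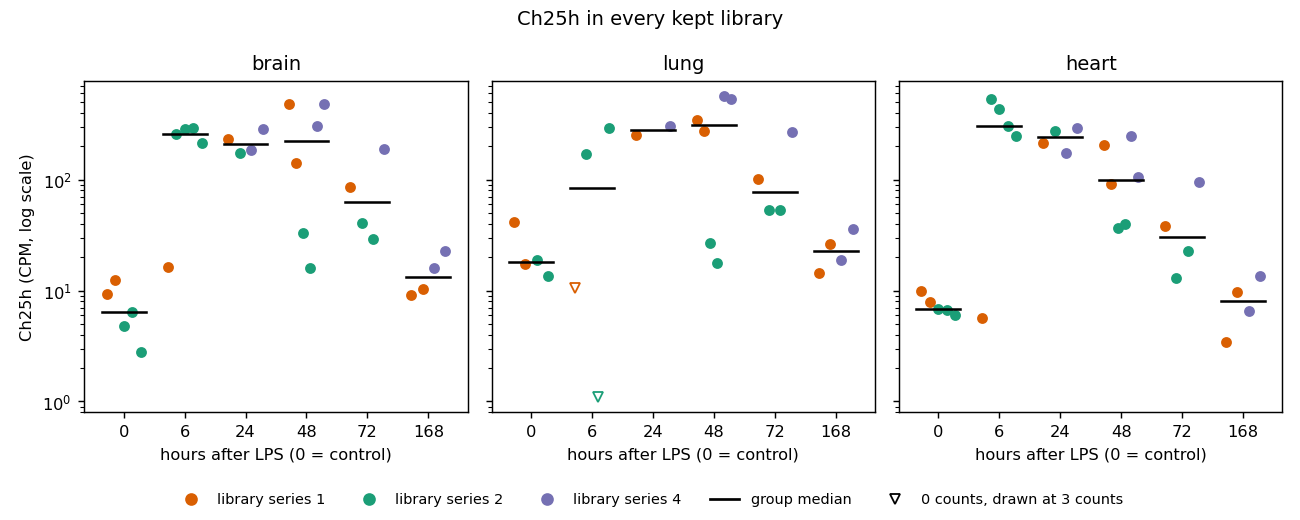
Ch25h in each kept library (CPM, log axis) by hours after LPS in brain, lung and heart, colored by library series, with a bar at the group median; open triangles are libraries with 0 counts, drawn at the CPM of 3 counts. Levels at 24 hr are at 172 to 307 CPM in all libraries, the series 1 libraries at 6 hr lie far below the medians, the 2 series 2 libraries of each tissue are the lowest at 48 hr, and levels overlap the controls at 168 hr.

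The spread of Ch25h went with the library series. At 48 hr the 2 series 2 libraries were the lowest of the 6 in each tissue: 16.1 to 32.7 CPM in brain, 17.8 to 26.8 in lung and 36.9 to 39.9 in heart, with all others at 92.0 or above. At 6 hr the series 2 libraries of brain and heart were high (214 to 533 CPM) and the single series 1 library low. Fitted within series 2 alone, Ch25h rose in brain by a log2 of 5.82, 5.25, 2.44 and 2.96 and in heart by 5.89, 5.4, 2.57 and 1.47 at 6, 24, 48 and 72 hr. Within series 1 alone, with 1 library at 6 hr, the 6 hr values were 0.52 in brain and -0.62 in heart. Later values of series 1 alone included 4.46 at 24 hr and 3.06 at 72 hr in brain, each from 1 library after LPS. In heart they included 4.58 at 24 hr, also from 1 library, and 4.07 at 48 hr. What the series stand for is not given in the sources used here.

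Macrophages also make CH25H, so the marker lists are given beside these levels. In brain the 11 macrophage and monocyte markers summed to 38.7 to 141 CPM in controls, to 361 to 512 in the 4 high Ch25h libraries at 6 hr and to 49.2 in replicate 6. At 24, 48 and 72 hr every brain library lay above the controls in this sum, the lowest being at 301.0, 341.0 and 170.0 CPM. At 168 hr the sum was 34.6 to 121.0 CPM, which overlaps the controls. All 11 markers had counts. The 8 pericyte and fibroblast markers in brain summed to 1252 to 2521 CPM in controls and 685 to 3214 at 6 hr. At 24, 48 and 72 hr this sum was 1476 to 4586, 1499 to 5297 and 840 to 1930 CPM. The neutrophil markers in brain summed to 5.74 to 54.8 CPM in controls and 6.94 to 409 at 6 hr. At 24, 48 and 72 hr their sum was 41.8 to 129, 50.2 to 180 and 11.8 to 75.8 CPM. The part of any of these cells in the brain levels of Ch25h was not tested at any time. In heart the macrophage and monocyte list summed to 46.5 to 77.5 CPM in controls. At 6 hr it was at 90.8 to 170.0 CPM in the 4 high Ch25h libraries and at 44.9 in replicate 5. At 24 hr it was at 42.9 to 55.3 CPM, within or below the control range, with Ch25h at 172 to 292. At 48 hr it was at 47.8 to 367.0. The 8 pericyte and fibroblast markers in heart summed to 352.0 to 673.0 CPM in controls, 573.0 to 1070.0 at 24 hr and 857.0 to 1579.0 at 48 hr. The part of any of these cells in the heart levels of Ch25h was not tested at any time. Neutrophil markers in heart went from 0.789 to 1.31 CPM in controls (Ly6g, Camp and Mmp8 at 0) to 8.45 to 33.4 at 24 hr. In lung the macrophage list ran from 297 to 870 CPM in controls and from 28.9 to 4177 at 6 hr, and the neutrophil list from 43.2 to 208 and from 28.9 to 4117, and their part in the lung levels was not tested.

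Hmgcs1 in heart was at 157, 180, 128 and 116 CPM in 4 libraries at 6 hr and at 57.1 in the library labelled replicate 5, against 66.1 to 89.6 in controls. The 4 lie above every control and the fifth below. The fold was 1.68 (log2 0.75, SE 0.21, adjusted p = 0.00717), and without replicate 5 the log2 was 1.00 (adjusted p = 2.56e-05), or 0.97 with the 48 hr libraries that stand apart left out too. At the later times in heart its log2 changes lay between -0.11 and 0.25. In brain it was at 167 to 257 CPM at 6 hr against 109 to 206 (log2 0.4, interval 0.09 to 0.7, adjusted p = 0.151), and at 72 hr at 80.6 to 148 (log2 -0.45, adjusted p = 0.164). In lung no value passed, with log2 changes of 0.31 to 0.70 and every interval crossing 0.

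Sqle in brain was at 40.7, 30.2, 43.3 and 26.0 CPM at 24 hr against 15.2, 21.6, 30.8, 23.7 and 34.4 in controls, so the groups overlapped. The fold of 1.61 just passed (log2 0.69, SE 0.22, adjusted p = 0.0464) and did not with limma-voom (adjusted p = 0.115), within series 2 (log2 0.06, adjusted p = 0.921), with a replicate block (log2 0.6, adjusted p = 0.194) or with the libraries that stand apart left out (log2 0.67, adjusted p = 0.0576). It was also lost without any 1 of control replicates 1 to 4 (adjusted p of 0.0626 to 0.111), among other single libraries. At 6 hr it was at 36.9, 43.0, 40.8, 55.1 and 23.2 CPM (log2 0.53, adjusted p = 0.123), and without the library labelled replicate 6, the lowest, it passed (log2 0.63, adjusted p = 0.0452). In lung Sqle was above all controls at 24 hr (23.0 and 16.5 CPM) and at 72 hr (35.1, 32.6, 19.6 and 32.6 against 7.53 to 15.4), and edgeR called neither (log2 1.15 and 1.68, adjusted p = 0.987 and 0.412), while DESeq2 called the second (adjusted p = 0.0244). In heart it stayed between 1.57 and 12.5 CPM and passed at no time.

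Insig1 was called at no time in any tissue in the fit of all libraries. In brain its lowest levels were at 72 hr, 36.3, 36.9, 19.8 and 17.5 CPM, all below the controls (38.1 to 55.3), with a log2 of -0.65 (SE 0.19, adjusted p = 0.0579, or 0.0291 with DESeq2). In heart at 6 hr it was at 19.0, 22.4, 24.0 and 26.6 CPM in 4 libraries, below every control (27.7 to 33.8), and at 37.0 in the library labelled replicate 5. The log2 was -0.3 (adjusted p = 0.254) with that library and -0.63 (SE 0.2, adjusted p = 0.00923) without it. With the libraries that stand apart left out Insig1 was lower in brain at 72 hr (log2 -0.64, adjusted p = 0.0383) and in heart at 6 hr (log2 -0.6, adjusted p = 0.016). At 24 hr all 4 heart libraries, at 18.8 to 25.4 CPM, were below the controls (log2 -0.38, adjusted p = 0.272).

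Srebf2 in heart at 6 hr was at 86.5, 103, 82.5, 86.4 and 62.6 CPM against 53.5 to 69.9 in controls. The 4 highest lie above every control, and the lowest, within their range, is the library labelled replicate 5. The fold was 1.47 (log2 0.56, SE 0.18, adjusted p = 0.0167), and without that library the log2 was 0.70, or 0.65 with the 48 hr libraries that stand apart left out too. In brain the 6 hr values were 106, 125, 124 and 118 CPM in 4 libraries and 70.0 in the library labelled replicate 6, against 62.6 to 102 (log2 0.25, interval -0.03 to 0.53, adjusted p = 0.369). In lung Srebf2 had 0 counts in 6 hr replicate 4 and was at 131, 105 and 127 CPM in the other 3, against 51.6 to 132 in controls.

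Abca1 in brain was at 70.8, 135, 80.4, 54.2 and 48.4 CPM at 6 hr, above every control (39.3, 42.0, 46.2, 29.4 and 47.3). The fold was 1.85 (log2 0.89, SE 0.26, adjusted p = 0.0405). It stayed above all controls at 24 hr (75.8, 48.2, 107 and 85.8 CPM, log2 0.89, adjusted p = 0.052) and at 48 hr (50.4 to 74.0 CPM, log2 0.68, adjusted p = 0.0702), on either side of the threshold. The 6 hr call was lost with limma-voom (adjusted p = 0.0709), with no series term (adjusted p = 0.0855), with a replicate block (adjusted p = 0.0535), without 6 hr replicate 2, the highest library (log2 0.58, adjusted p = 0.162), and without any 1 of control replicates 2 to 5 (adjusted p of 0.0606 to 0.134). It passed without replicate 6 (log2 1.07, adjusted p = 0.007) and with the libraries that stand apart left out (log2 1.10, adjusted p = 0.00518). In heart at 6 hr it was at 178, 233, 93.6, 96.9 and 68.1 CPM against 59.7 to 115 (log2 0.7, SE 0.3, adjusted p = 0.0659), and it passed without replicate 5 (log2 0.86, adjusted p = 0.0216) and with the libraries that stand apart left out (log2 0.89, adjusted p = 0.0256).

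Abcg1, which LXR also controls, was called at no time. In brain some libraries lay far below the rest: 24 hr replicates 4 and 5 were at 3.72 and 3.16 CPM and 48 hr replicates 3, 6 and 7 at 6.91, 4.01 and 3.99, while the remaining brain libraries of those times were at 14.2 to 26.2 and controls at 14.4 to 22.7. The fitted log2 was -0.48 at 24 hr (interval -1.1 to 0.15) and -0.14 at 48 hr (interval -0.68 to 0.4). In heart 24 hr replicate 5 and 48 hr replicates 3, 6 and 7 were at 14.4, 15.7, 16.5 and 28.2 CPM against 36.9 to 48.0 in controls, and the other libraries of those times at 44.5 to 83.3. In brain 4 of the 5 low libraries were of series 4, which holds no control library. The series 4 brain libraries of later times were at 10.0 CPM at 72 hr and at 14.0 to 15.7 at 168 hr. The part of the series in the low levels was not tested. At 168 hr the brain level of 14.0 to 24.5 CPM overlapped the controls and the fitted log2 of 0.9 (adjusted p = 0.903) did not pass. In lung at 6 hr it was at 32.8 and 87.8 CPM in replicates 1 and 3 and had 0 counts in replicates 2 and 4, against 44.9 to 84.2 in controls (log2 -0.76). Without replicate 3, the deepest of the 4, the value was -2.18 (adjusted p = 0.0354), without replicate 4 it was -0.49 (adjusted p = 0.754) and without replicates 2 and 4 it was 0.08 (adjusted p = 0.969). The endothelial markers moved in the same group, from 12377 to 16875 CPM in lung controls to 1993 to 13642 at 6 hr, and their part in these levels and in those of Scarb1 was not tested.

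Scarb1 in heart was at 17.0, 34.4, 14.1 and 39.3 CPM in 4 libraries at 6 hr, against 187 to 232 in controls, and at 201 in the library labelled replicate 5. The 4 are far below every control and the fifth is among them. The fold was 0.267 (log2 -1.91, SE 0.41, adjusted p = 0.00115), and without replicate 5 the log2 was -2.89 (adjusted p = 2.14e-09), or -2.90 with the 48 hr libraries that stand apart left out too. The 10 endothelial markers moved in the same libraries: they summed to 4048, 5313, 3722 and 6512 CPM in the 4 and to 9612 in replicate 5, against 9533 to 10596 in controls. The part of that fall in the Scarb1 level was not tested.

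At later times the heart level of Scarb1 lay nearer the controls. At 24 hr it was at 106, 77.6, 118 and 127 CPM, all below the controls (log2 -1.13, SE 0.46, adjusted p = 0.0887, and -0.96 with an adjusted p of 0.00746 without 6 hr replicate 5), while the endothelial markers summed to 8342 to 11221 CPM. At 48, 72 and 168 hr it was at 136 to 269, 149 to 200 and 185 to 209 CPM, with no call. In brain it was at 14.9, 20.5, 19.8, 32.2 and 33.8 CPM at 6 hr against 26.1 to 67.4 in controls. The log2 was -0.58 (SE 0.18, adjusted p = 0.0553, or 0.037 with DESeq2). The endothelial markers in brain summed to 1155 to 2424 CPM at 6 hr (median 1567), against 1780 to 3642 in controls (median 2429). At 24, 48, 72 and 168 hr the medians of this sum were 3496, 4032, 4304 and 3015 CPM. The part of these shifts in the brain levels of Scarb1 or of the other genes was not tested at any time. In lung at 6 hr Scarb1 was at 11.9 and 17.2 CPM in replicates 1 and 3, against 18.2 to 132 in controls. It had 0 counts in replicates 2 and 4. The log2 was -1.93 (SE 0.8, adjusted p = 0.148). Without replicate 3 it was -2.77 (adjusted p = 0.0246), and without replicates 2 and 4 it was -1.25 (adjusted p = 0.396).

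**Figure D4:**
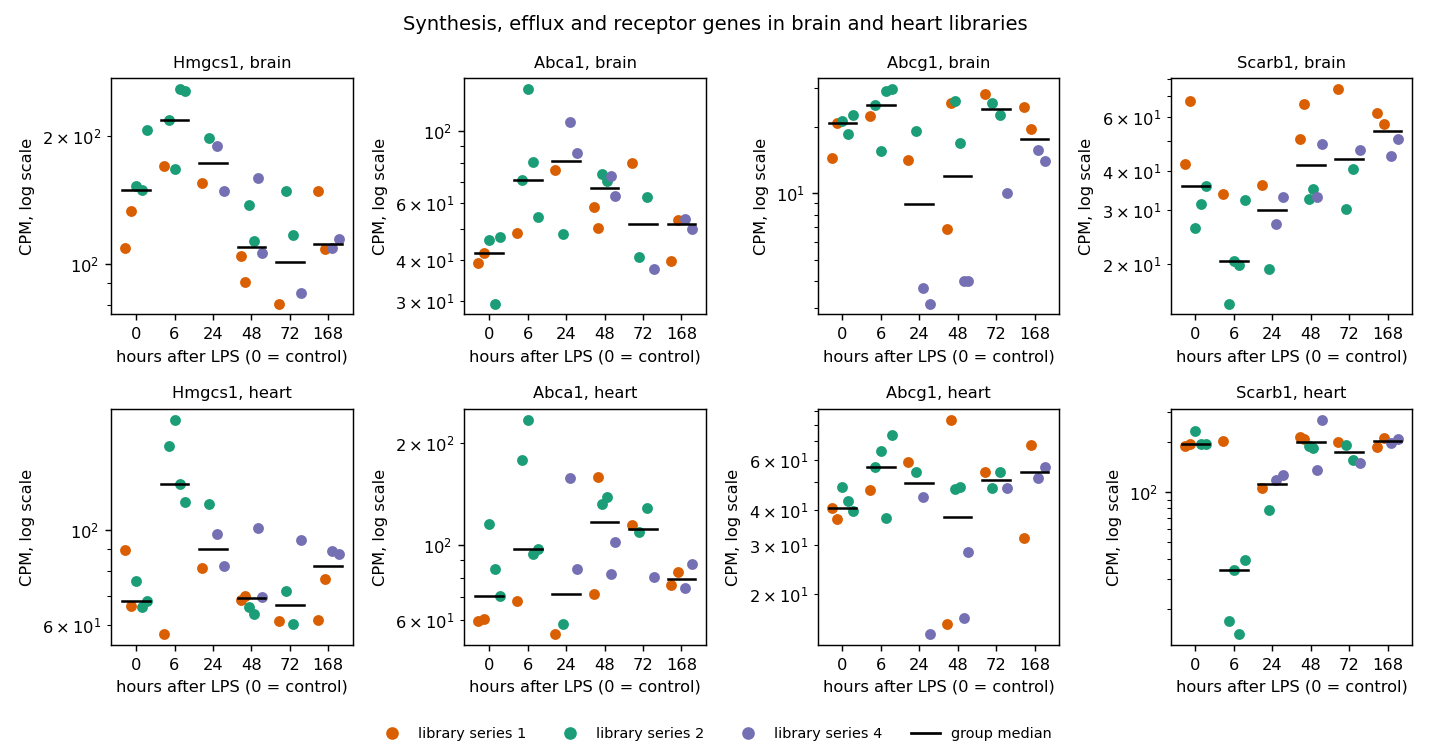
Hmgcs1, Abca1, Abcg1 and Scarb1 in each brain and heart library (CPM, log axis) by hours after LPS, colored by library series, with a bar at the group median. In heart at 6 hr the single series 1 library lies with the controls for Scarb1 (201 CPM) while the other 4 are at 14.1 to 39.3 CPM, and brain Abcg1 shows the low libraries at 24 and 48 hr.

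Whether the response differed between tissues was tested directly at 6 and 48 hr, the change in 1 tissue minus that in another. None of the 24 differences passed at 6 hr and none at 48 hr (edgeR, 3 and 5 of them at an unadjusted p under 0.05, with 1 and 1 called by DESeq2 and 0 and 0 by limma-voom). Over all genes, 4753, 1795 and 5569 of 18975 had an unadjusted edgeR p under 0.05 at 6 hr. These are brain minus lung, brain minus heart and lung minus heart. At 48 hr, in the same order, 2803, 1299 and 2434 of 19184 did. For Ch25h the 6 hr response in lung minus that in heart was -2.8 (SE 1.24, adjusted p = 0.13), and -2.80 (SE 0.94, adjusted p = 0.0448) when the series 1 libraries at 6 hr were left out. Brain minus lung was 2.32 (adjusted p = 0.239) and brain minus heart -0.48 (interval -2.72 to 1.75). At 48 hr the largest differences were those of Insig1 and Sqle, lung minus heart, at 1.64 (adjusted p = 0.09) and 1.66 (adjusted p = 0.175). Among all genes 3.71% and 4% were higher and lower at 6 hr in brain minus lung, 0.00527% and 0.126% in brain minus heart and 5.64% and 6.6% in lung minus heart. At 48 hr these shares were 0.631% and 1.42%, 0.219% and 0.188%, and 0.37% and 0.24%. The medians of all genes in the 6 hr differences were 0.39, 0.08 and -0.37.

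The other 49 listed genes of the pathway show what surrounded the 8. In brain at 6 hr 7 were higher and 2 lower, where 4.21% and 2.23% of all genes were (median of the 49 at 0.07, all genes 0). They were led by Soat2 (log2 3.63, SE 0.77), which makes cholesterol esters, Cyp7b1 (1.72, SE 0.31), a hydroxylase that breaks down 25-hydroxycholesterol, and Pltp (-1.61, SE 0.41), the phospholipid transfer protein. At 24 hr 9 were higher and 1 lower (6.52% and 4.66% of all genes), led by Soat2 (4.12), Pltp (-2.57) and Cyp7b1 (1.93). At 48 hr 4 were higher and 2 lower (8.11% and 6.12% of all genes), led by Soat2 (3.98), Pltp (-1.67) and Hsd3b7 (1.54). At 72 hr 2 were higher (2.98% of all genes), Soat2 (3.58) and Lipa (0.84). At 168 hr none passed. Within the synthesis list of 20, which includes Hmgcs1 and Sqle, 4 were higher at 6 hr and 6 at 24 hr and none lower, with medians of 0.41 and 0.42 against 0 and -0.03 over all genes. Oligodendrocyte markers summed to 2560 to 7580 CPM at 6 hr and 631.0 to 4984 at 24 hr, against 1260 to 6131 in controls, and their part was not tested.

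In heart at 6 hr 9 of the 44 tested were higher and 12 lower (median -0.19, all genes -0.05), where 22.4% and 20.3% of all genes were. The heart genes were led by Cyp7b1 (2.75, SE 0.56), Hsd3b7 (-2.13, SE 0.47), which acts on hydroxylated sterols on the way to bile acids, and Acat2 (1.88, SE 0.33), at the first step of sterol synthesis. Of the 20 synthesis genes 6 were higher and 4 lower, with a median of 0.01. At 24 hr 4 were higher and 3 lower (9.07% and 7.11% of all genes), led by Cyp27a1 (-2.81), Pltp (-2.72) and Soat2 (2.42). At 48 hr Mylip (1.13), a ligase that degrades the LDL receptor, was the only one (3.08% of all genes higher and 1.11% lower). None passed at 72 or 168 hr.

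In lung 45 of the 49 were tested. At 6 hr 1 was higher, Cyp7b1 (3.78, SE 0.83), and 3 lower, led by Nsdhl (-6.43, SE 1.64) and Pltp (-3.89, SE 1.13). The shares over all genes were 2.56% and 2.27%. The median was -0.5 against -0.42 over all genes, and none passed later. These 6 hr values rest on 4 libraries, of which replicates 2 and 4 had counts on only 7473 and 3760 genes. Of the pathway genes at baseline 20 of 47 were higher and 11 lower in brain than in lung (37.9% and 26.4% of all genes). Among them were Abcg4 (11.95) and Cd36 (-8.94). Brain against heart gave 24 higher and 10 lower (32% and 22.8% of all genes), led by Cd36 (-12.39), Cyp46a1 (9.15) and Abcg4 (8.89). Lung against heart gave 22 higher and 12 lower (29.9% and 31.2% of all genes), among them Hsd3b7 (-4.58) and Cyp46a1 (3.73). In the response differences at 6 hr 3 were higher and 1 lower in brain minus lung (3.71% and 4% of all genes). They were led by Gpr183 (6.77), Nsdhl (6.75) and Apoa1 (-5.86). In lung minus heart 4 were higher and 4 lower (5.64% and 6.6% of all genes), led by Gpr183 (-6.49), Apoa1 (5.51) and Nsdhl (-5.42). In the synthesis list at baseline 16 of 20 were higher and none lower in brain than in heart, with a median of 1.43 against 0.09 over all genes. Brain against lung gave 8 higher and 3 lower (median 0.51, all genes 0.42), and lung against heart 12 higher and 1 lower (median 0.85, all genes -0.09). Cyp46a1 and Abcg4 are known from neural cells, and brain controls held neuronal, oligodendrocyte and astrocyte markers at the levels given above, whose part in the baseline differences was not tested.

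Ordered by mean log2 CPM over the 18 tissue and time groups, most neighbors of a gene did not differ beyond their spread. Sorting puts like means side by side, so small gaps are built into this order. The counts of gaps thus say which ranks are uncertain and nothing about groups further apart. Of 17 neighboring pairs, those further apart than the larger of their SDs numbered 3 for Scarb1, 2 for Insig1, 1 each for Ch25h, Sqle, Abca1 and Abcg1, and 0 for Hmgcs1 and Srebf2. Ch25h was lowest in lung at 6 hr (2.22, SD 6.45, with the 2 libraries at 0 counts) and highest in lung at 24 hr (8.12, SD 0.2). Hmgcs1, Sqle, Insig1 and Srebf2 were each highest in brain at 6 hr, at 7.71, 5.26, 5.74 and 6.74. Abca1 was highest in heart at 6 hr (6.92), Abcg1 in lung at 168 hr (6.38) and Scarb1 in heart at 0 hr (7.64).

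The genes most alike in pattern were sought among 9022 genes, by Pearson's r over the 18 group means of log2 CPM after removal of the library series and each tissue's mean. These means share libraries, depth and scaling, so r is a description and carries no test. Lung at 6 hr, with libraries at 0 counts, enters each r. Its mean log2 CPM was 0.25 for Scarb1 (SD 4.17), 1.2 for Abcg1 (SD 5.29) and 4.34 for Srebf2 (SD 5.13), each the lowest group of its gene. Values of r without the lung groups are not given for the genes named here. For Ch25h the most alike were Sbno2 (0.966), Irak3 (0.963) and Junb (0.954). For Scarb1 they were Slc29a1 (0.986), Fam13c (0.983) and Selenom (0.983), for Abcg1 Lrrc61 (0.979), Rab2b (0.978) and Edem3 (0.977), and for Srebf2 Rlf (0.968), Rps6kc1 (0.967) and Epc1 (0.964). For Sqle they were Telo2 (0.876), Slc12a9 (0.873) and Cyp51 (0.872), the last being itself a synthesis enzyme, for Hmgcs1 Slc25a3 (0.852), Isg15 (0.842) and Gnl3l (0.823), for Insig1 Vps9d1 (0.84), Rnf11 (0.786) and Slbp (0.782), and for Abca1 Smad1 (0.811), Pxn (0.795) and Trp53inp1 (0.764).

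Among the 8 themselves r changed sign or size once the 6 lung groups were left out, and the 0 counts of lung 6 hr enter the full value. Srebf2 and Abcg1 had an r of 0.83 over 18 groups and -0.18 over the 12 of brain and heart, and Abcg1 and Scarb1 0.82 and 0.15. Over brain and heart Hmgcs1 went with Srebf2 (0.79) and against Scarb1 (-0.83), and Ch25h with Abca1 (0.74) and against Scarb1 (-0.64).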

How the data were processed

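RNA bound to HA-tagged endothelial ribosomes of mouse brain, lung and heart was sequenced from TruSeq mRNA libraries. The authors aligned reads to mm10 with STAR 2.4.2 and counted them per gene with HTSeq 0.6.1, per the labels, and deposited raw counts for each sequencing run. The annotation release and the strand setting are not given in the sources used here.

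The 217 runs were summed to 98 libraries. The 18 libraries with under 3% of reads on genes (at most 2.75%, 155176 to 1330479 counts) were left out, all of them of library series 3, and 80 were kept. Rows that name no gene were left out of library sizes and tests. Within each tissue, each time was compared with 0 hr with edgeR 4.0.16 (R 4.3.3): filterByExpr, TMM, quasi-likelihood F test, a term for the library series (4 patterns of file names) and Benjamini-Hochberg adjustment over all genes. The same model compared the tissues at 0 hr and their responses at 6 and 48 hr. The SE was the log2 fold change over the root of F, and the 95% interval 1.96 SE to either side. The study's methods correct for sequencing batch, which the labels do not give.

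The members and gene lists were chosen with earlier results of these data known. All 8 members are named. Of the other listed pathway genes at most 3 per comparison are named, those with the largest changes among genes past the threshold, and for each member the 3 genes with the highest correlation (genes averaging a log2 CPM of 3 or more). Some genes that this rule would name are not reported here. Alternatives were DESeq2 1.42.0, limma-voom (limma 3.58.1), RLE scaling, no filter, no series term, a replicate block, single series, all libraries, a minimum of 1000000 counts and each library left out. Leaving out libraries under 10% on genes, the 6 hr libraries of series 1, or the 8 libraries that stand apart (brain 6 hr replicate 6, heart 6 hr replicate 5, lung 6 hr replicates 2 and 4, and 48 hr replicates 1 and 2 of brain and heart), was added after seeing the data. On data simulated with known changes the fit recovered 100% of 4-fold changes in brain at 6 hr, 94% in lung and 100% in heart, and 40%, 14% and 48% of 2-fold changes. The simulation gave every gene and tissue the same spread, held no difference between library series, and changed only well-counted genes. The lung libraries spread more than the others, so these shares need not hold for the lung tests. Replicate libraries were checked for duplicates: the lowest chi-square per degree of freedom over 146 pairs was 15.1, and all were counted separately.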

Additional observations from a re-analysis of the deposited data

Results flagged for a closer look

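Of 136 groups of 4 to 6 libraries, 16 held a library whose gap to the others was wide for the range of its group, where chance flags about 1 in 20 groups, and 5 of the 16 were in the 6 hr libraries of series 1. Ch25h was at 16.3 CPM in brain 6 hr replicate 6 (others 214 to 290) and at 5.61 in heart 6 hr replicate 5 (others 245 to 533). Srebf2 was at 70.0 CPM in brain 6 hr replicate 6 (others 106 to 125), and in lung 6 hr replicate 4 Srebf2 and Sqle were at 0.0 CPM (others 105 to 131 and 13.7 to 34.9).

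Scarb1 was at 132 CPM in lung 0 hr replicate 4 (others 18.2 to 20.3) and at 232 in heart 0 hr replicate 3 (others 187 to 194). Insig1 was at 55.3 CPM in brain 0 hr replicate 5 (others 38.1 to 42.5), 22.8 in brain 48 hr replicate 4 (others 38.1 to 49.8), 17.6 in lung 168 hr replicate 5 (others 12.3 to 12.9), 27.7 in heart 0 hr replicate 4 (others 32.2 to 33.8) and 25.4 in heart 24 hr replicate 2 (others 18.8 to 19.6). Hmgcs1 was at 101 CPM in heart 48 hr replicate 6 (others 63.6 to 70.0), and Sqle at 19.6 in lung 72 hr replicate 3 (others 32.6 to 35.1). Srebf2 was at 93.2 CPM in brain 168 hr replicate 2 (others 67.7 to 70.5) and at 27.9 in lung 48 hr replicate 2 (others 78.0 to 144).

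In the libraries left out for under 3% of reads on genes, 7 values had a lower 95% exact binomial bound above the upper bound of the left-out control of their tissue, each from few counts, and 6 of the 7 are in lung, where that control had 0 counts of each gene. Ch25h was at 26.2 CPM in brain 6 hr replicate 5 (17 counts, exact binomial interval 15.2 to 41.9, counting error only) and at 15.8 in lung 24 hr replicate 2. Hmgcs1 was at 9.77 CPM in lung 48 hr replicate 5. Sqle was at 31.6 CPM in lung 24 hr replicate 2, 36.1 in lung 48 hr replicate 5, 26.8 in lung 72 hr replicate 4 and 37.2 in lung 168 hr replicate 3. Other values went the opposite way or lay within the bounds: Sqle was at 61.8 CPM in the left-out brain control and 13.9 at 6 hr, and at 92.0 and 28.8 in heart, and Ch25h in brain was at 15.6 CPM at 24 hr and 17.1 at 48 hr against 1.72.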

How the results depend on the processing

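The number of calls among the 8 genes depended on the processing. The shares of all genes called under each setting are not given here. These counts therefore describe the settings and are not a result about the 8 genes. In brain 6 of 40 passed, against 10 with DESeq2, 3 with limma-voom and 1 within library series 1, and 4 to 9 with each library left out in turn. In lung 0 of 40 passed, against 4 with DESeq2, 2 with no filter, 2 with a minimum of 10% of reads on genes, 1 with RLE scaling, 1 with a minimum of 1000000 counts and 1 with the libraries that stand apart left out, and 0 to 2 with a library left out. In heart 6 of 40 passed, against 0 within series 1, 10 with the libraries that stand apart left out and 6 to 10 with a library left out, the most being without 6 hr replicate 5. Between tissues at 0 hr 16 of 24 passed (15 to 19 with a library left out, 13 to 18 otherwise). For the response differences 0 passed, against 1 with DESeq2 at 6 hr and 1 at 48 hr, 2 with no filter at 6 hr and 1 without the 6 hr libraries of series 1, and 0 to 1 with a replicate number left out. Among values called in either fit direction reversed for 4: within series 1 heart at 6 hr gave -0.62 for Ch25h, -0.42 for Hmgcs1 and 0.11 for Scarb1 (1 library at 6 hr, the one labelled replicate 5), and Scarb1 in brain against lung at 0 hr gave -0.28 to 0.90 with a library left out, 0.90 being without lung 0 hr replicate 4. Values called in neither fit changed sign as well, as in lung at 6 hr within series 1, where the single library had 0 counts of Ch25h, Sqle and Srebf2 (3.07 to -10.59, 0.88 to -9.41 and 0.26 to -12.2). Sqle between tissues at 0 hr was no longer called with all libraries kept (brain against heart 1.48, adjusted p = 0.0855), and lung against heart was lost without lung 0 hr replicate 1 (0.69, adjusted p = 0.0742). The cause of these shifts was not tested.

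The replicate numbers were not taken to pair the samples: same-numbered libraries had correlations of their deviations of -0.574 to 0.734 across times in a tissue and -0.255 to 0.716 across tissues. They were all positive between brain and heart at 6 hr (0.301 to 0.383) and at 48 hr (0.199 to 0.716), and not at 0 hr (-0.034 to 0.093). With the replicate number as a block 3 calls were made in brain (without Ch25h at 72 hr, Abca1 at 6 hr and Sqle at 24 hr), 0 in lung, 6 in heart, 16 between tissues at 0 hr and 0 for the response differences. Depth limits lung most, where 1 kept library has 284457 counts.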

Other observations

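In the 18 libraries left out, the 8 genes had 0 to 58 counts each. Sqle had the most, with a median of 24.5 counts, while the medians of the other 7 were 0.0 to 3.0.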
